A study of Mus musculus with 16 samples.

Results

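The comparison set 4 arrays of CD25-positive, CD4- and CD8-negative thymocytes that carry the BDC2.5 T cell receptor transgene (BDC DN2-3) against 4 arrays of polyclonal thymocytes that lack the transgene and had lost CD25 (non-Tg DN4). It used 8 of the 16 arrays of the study, taken by their labels. The question was whether CD25-positive cells with an early receptor resemble cells after beta-selection or form a separate state. Each state came from both strain backgrounds, B6g7 and NOD, with 2 arrays for each strain and state. All mice were 4 weeks old, and in every group lymphocytes bearing CD4 or CD8 were first depleted with complement. The DN2-3 cells were then sorted as lineage-negative and CD25-positive, with no gate on CD44 given, and the DN4 cells as lineage-negative cells without CD44 and CD25. In each strain replicate 1 of BDC DN2-3 was from a male and replicate 2 from a female, and all non-Tg arrays were from females. The 4 arrays of the non-Tg DN2-3 sort (all female, B6g7 and NOD) serve below as a further point of reference. The 4 BDC DN4 arrays enter the distances between arrays and the alternatives that use all 16 arrays. All 16 arrays also enter the choice of probe sets and of tested genes, and all female arrays the background level. The labels do not say whether replicates came from separate animals, so p-values measure the spread between these arrays, which may be technical. They name neither the promoter of the transgene nor its founder line.

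Thymocytes that express neither CD4 nor CD8 pass through numbered double-negative (DN) stages. At DN2 and DN3 they carry CD25, the alpha chain of the interleukin-2 receptor, and rearrange their receptor genes with the Rag recombinase under Notch and interleukin-7 signals. A rearranged beta chain pairs with the pre-TCR alpha chain (Ptcra), and signals from this pre-TCR, called beta-selection, take cells to DN4, where they lose CD25, divide and prepare to express CD4 and CD8. BDC2.5 is a receptor from a CD4 T cell clone that recognises a pancreatic islet antigen in NOD mice, which develop autoimmune diabetes. B6g7 mice are C57BL/6 mice with the MHC haplotype of NOD. In many transgenic lines a rearranged alpha-beta receptor appears on double-negative cells earlier than the endogenous alpha chain would.

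Values are log2 of the deposited, already normalised array intensities, with 1 probe set (the brightest) per gene. A gene was tested where the mean of at least 1 of the 8 groups reached 7.05 on the log2 scale, the median of all named probe sets, which kept 10689 of 19531 genes. Fold changes are BDC DN2-3 minus non-Tg DN4 on the log2 scale with the standard error of the fit (SE), over 4 arrays against 4 with strain as a block. A gene is called where its Benjamini-Hochberg adjusted p-value from limma was under 0.05. A signal of 5.98 or less is treated as background, the highest signal of 3 Y-linked genes on a female array. Where all arrays of a group lie at background the difference is given as a bound ("at least"). Median intensities of the 8 arrays were 123.4 to 133.6, and replicate arrays of these groups correlated at 0.989 to 0.994 across genes. Of the 16 arrays, NOD non-Tg DN2-3 replicate 1 stood apart from its replicate, with a median absolute difference of 0.25 (log2) between them.

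The sort markers followed their labels. Il2ra, which encodes CD25, read 12.52 and 12.56 (B6g7) and 12.32 and 12.40 (NOD) on the BDC DN2-3 arrays, against 10.56 and 10.20 (B6g7) and 10.18 and 9.96 (NOD) on the non-Tg DN4 arrays. Its DN4 signal therefore remained far above background. Cd44 was also lower in DN4, where the sort left out CD44-bearing cells, with 7.66 and 7.67 (B6g7) and 7.61 and 7.85 (NOD) in BDC DN2-3, against 6.51 and 6.64 (B6g7) and 6.81 and 6.95 (NOD) in non-Tg DN4. Of the TCR segment genes 2 were called, both lower in BDC DN2-3. How many were tested was not counted, so they have no share to set beside the 38.0% called of all genes. The V delta segment Trdv2-2 read 6.27 and 6.29 (B6g7) and 6.32 and 5.93 (NOD) in BDC DN2-3, against 9.59 and 9.52 (B6g7) and 10.01 and 9.77 (NOD) in non-Tg DN4 (-3.52 ± 0.12, adjusted p = 1.75e-08). The V beta segment Trbv1 was lower by a smaller amount (-1.35 ± 0.12, adjusted p = 2.21e-05).

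Over all genes, 4064 of 10689 were called (38.0%), 2277 higher in BDC DN2-3 (21.3%) and 1787 lower (16.7%), with a median difference of 0.013. The excess of rises changed with the scaling and the weights. With quantile normalization applied again 2293 genes rose and 2298 fell, with array weights 3066 and 3185, and with arrays centred on their medians 2025 and 1252. Differences over 2-fold were called for 195 genes higher and 45 lower. The arrays of the 2 states did not overlap within either strain for 4376 genes (40.9%). Of the 8 arrays, the 2 from males are both BDC DN2-3. With sex as a term the count fell to 2423, and without the male arrays it was 2201. Fewer cells of a type and less RNA per cell cannot be told apart in such sorted bulk samples.

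To ask which sort the BDC DN2-3 cells lay closer to, the median absolute log2 difference over the tested genes was taken between pairs of arrays of one strain, as a description without a test. In B6g7 the BDC DN2-3 arrays lay 0.266 to 0.295 from the non-Tg DN4 arrays and 0.219 to 0.24 from the non-Tg DN2-3 arrays. All 4 distances to DN4 were thus longer than all 4 to DN2-3, and both were longer than the 0.11 between the 2 BDC replicates. In NOD the distances were 0.17 to 0.203 to non-Tg DN4. The distances to non-Tg DN2-3 in NOD were 0.338 and 0.326 with the array that stands apart and 0.199 and 0.21 with its replicate. Without that array the 2 kinds of distance overlapped in NOD, at 0.199 against 0.203. After quantile normalization again they did not, with 0.152 to 0.195 to non-Tg DN4 and at least 0.197 to non-Tg DN2-3. The root mean square differences over genes did not overlap either. Without that array they were 0.34 to 0.39 to non-Tg DN4, and 0.414 and 0.406 to non-Tg DN2-3. Averaged over the strains the median absolute difference was 0.232 to non-Tg DN4 and 0.249 to non-Tg DN2-3. Without that array the average of the remaining pairs to non-Tg DN2-3, which weighs B6g7 more than NOD, was 0.221. The order of the averages therefore turned on a single array. The BDC DN2-3 arrays lay 0.323 to 0.341 from the BDC DN4 arrays in B6g7 and 0.154 to 0.17 in NOD.

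**Figure D1:**
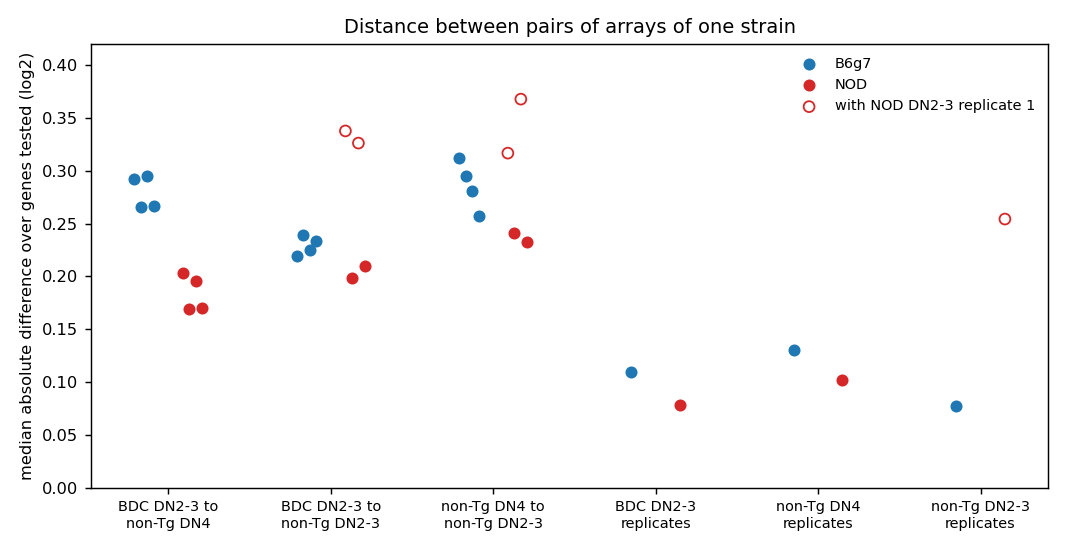
Median absolute log2 difference over the tested genes (y axis) for every pair of arrays of one strain, by pair of states (x axis); filled dots are B6g7 and NOD pairs and open circles are pairs with NOD non-Tg DN2-3 replicate 1. In B6g7 the 4 distances from BDC DN2-3 to non-Tg DN4 (0.266 to 0.295) lie above the 4 to non-Tg DN2-3 (0.219 to 0.24), while in NOD the open circles at 0.338 and 0.326 stand above the rest of their column.

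The 3 sorts differed in which one was the odd one out, and the genes show what each pattern is made of. Genes were counted where both arrays of one state lay above, or below, all 4 arrays of the other 2 states in both strains. BDC DN2-3 lay outside for 1700 genes (15.9%), 989 above and 711 below. Non-Tg DN4 lay outside for 1682 genes (15.7%), and non-Tg DN2-3 for 2365 (22.1%). With a gap of at least 1 (log2) in both strains, the counts were 14 above and 7 below for BDC DN2-3. They were 5 above and 25 below for non-Tg DN4, and 36 above and 4 below for non-Tg DN2-3. Without the NOD non-Tg DN2-3 array that stands apart, BDC DN2-3 lay outside for 1813 genes, non-Tg DN4 for 2707 and non-Tg DN2-3 for 3457. By the rule of this count, leaving out any array can only keep or raise it, so these rises are no check of the counts.

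**Figure D2:**
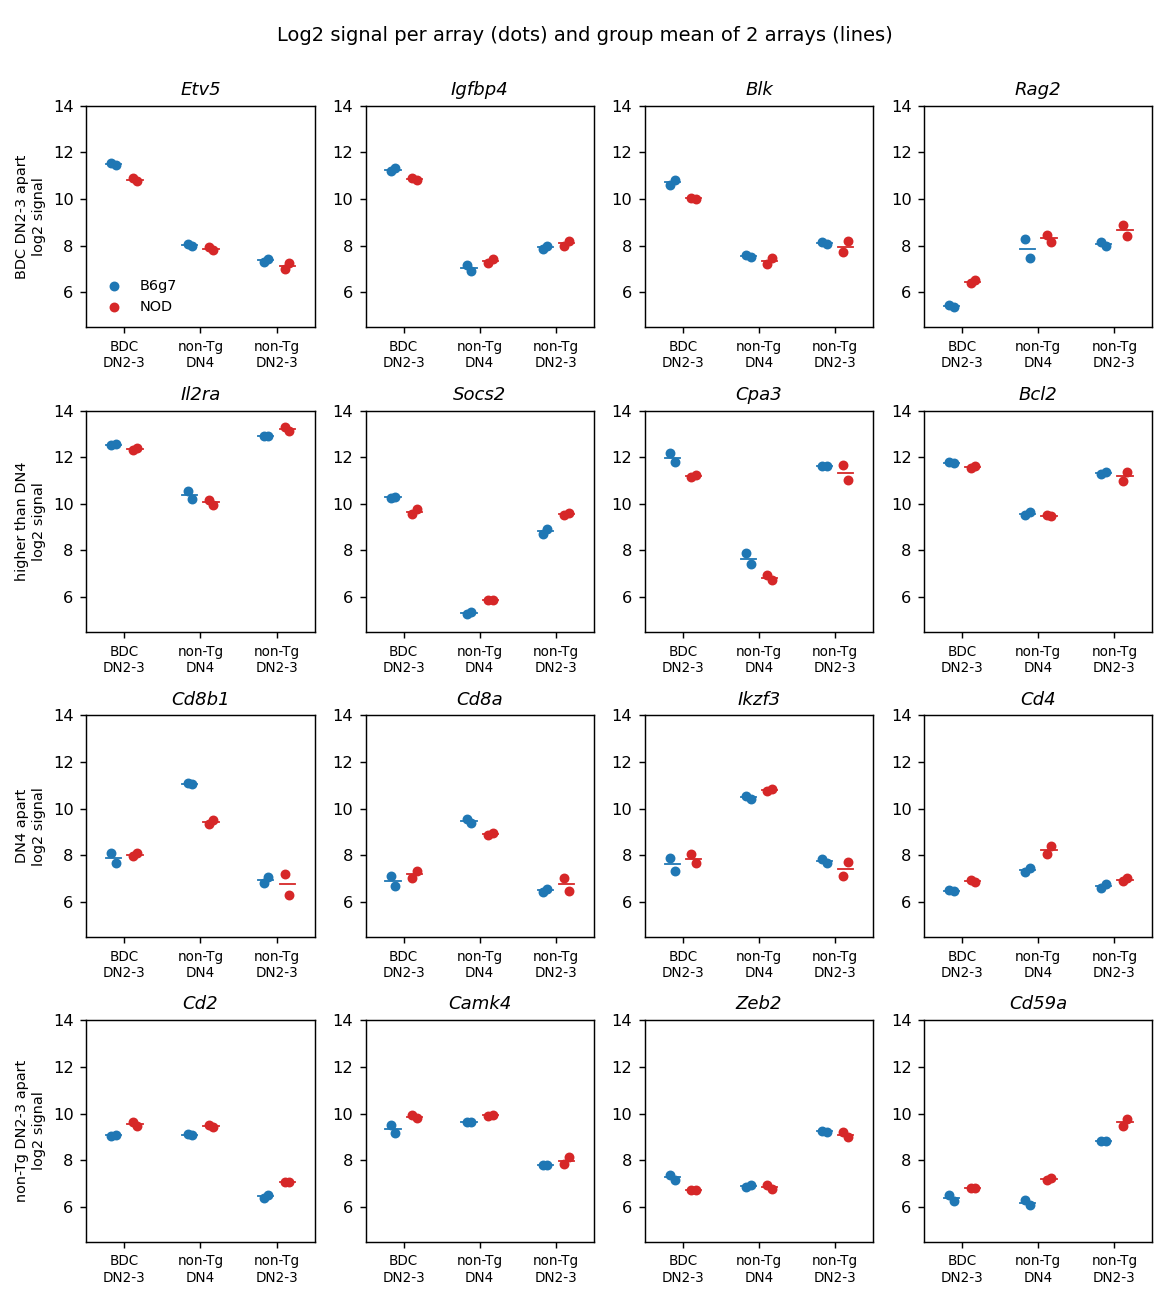
Log2 signal (y axis) of 16 genes on each array of BDC DN2-3, non-Tg DN4 and non-Tg DN2-3 (x axis), as dots with the mean of the 2 arrays as a line, for B6g7 and NOD. In the top row BDC DN2-3 lies apart from both polyclonal sorts, in the second both CD25-positive sorts lie above DN4, in the third DN4 lies above the others, and in the bottom row non-Tg DN2-3 lies apart.

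The genes in which BDC DN2-3 stood furthest above both polyclonal sorts include several known from gamma-delta T cells. Etv5, an ETS-family transcription factor of interleukin-17-producing gamma-delta cells, read 11.56 and 11.45 (B6g7) and 10.89 and 10.76 (NOD) in BDC DN2-3. It read 8.08 and 7.98 (B6g7) and 7.93 and 7.82 (NOD) in non-Tg DN4 and 7.31 and 7.42 (B6g7) and 7.004 and 7.24 (NOD) in non-Tg DN2-3. The difference was 3.21 ± 0.11 against DN4 (adjusted p = 1.57e-08) and 3.92 ± 0.11 against non-Tg DN2-3. Blk, a Src-family kinase of B cells and gamma-delta cells, read 10.61 and 10.82 (B6g7) and 10.05 and 10.02 (NOD) in BDC DN2-3, 7.61 and 7.52 (B6g7) and 7.21 and 7.45 (NOD) in non-Tg DN4 and 8.14 and 8.08 (B6g7) and 7.71 and 8.18 (NOD) in non-Tg DN2-3 (2.93 ± 0.11 against DN4, adjusted p = 2.68e-08). The rule that picked this group requires that no BDC DN2-3 array overlap either polyclonal sort of its strain. Cd163l1, a scavenger receptor family member, read 9.59 and 9.49 (B6g7) and 9.48 and 9.24 (NOD) in BDC DN2-3, against 7.37 and 7.51 (B6g7) and 7.08 and 7.07 (NOD) in non-Tg DN4 and 7.83 and 7.64 (B6g7) and 7.47 and 7.57 (NOD) in non-Tg DN2-3. Igfbp4, which binds insulin-like growth factors, read 11.21 and 11.31 (B6g7) and 10.91 and 10.80 (NOD) in BDC DN2-3, against 7.18 and 6.90 (B6g7) and 7.25 and 7.41 (NOD) in non-Tg DN4 and 7.86 and 7.99 (B6g7) and 7.97 and 8.22 (NOD) in non-Tg DN2-3. The peptide transporter Slc15a1 read 9.54 and 9.64 (B6g7) and 8.53 and 8.42 (NOD) in BDC DN2-3 and lay at background on all 8 polyclonal arrays. Its difference was at least 3.05 against either sort (adjusted p = 5.47e-08 against DN4).

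The genes in which BDC DN2-3 stood furthest below both sorts include both subunits of the recombinase. Rag2 read 5.45 and 5.38 (B6g7) and 6.38 and 6.54 (NOD) in BDC DN2-3, against 8.26 and 7.46 (B6g7) and 8.46 and 8.16 (NOD) in non-Tg DN4 and 8.17 and 7.97 (B6g7) and 8.90 and 8.42 (NOD) in non-Tg DN2-3. The B6g7 BDC arrays lay at background, so Rag2 fell by 1.87 or more relative to DN4 (adjusted p = 1.49e-05). Rag1 read 8.39 and 8.02 (B6g7) and 9.45 and 9.69 (NOD) in BDC DN2-3, against 9.91 and 10.49 (B6g7) and 10.98 and 11.19 (NOD) in non-Tg DN4 and 11.55 and 11.28 (B6g7) and 10.75 and 11.43 (NOD) in non-Tg DN2-3 (-1.76 ± 0.15 against DN4, adjusted p = 2.4e-05). Both Rag genes were also lower than in the polyclonal cells of the same CD25-positive sort, Rag1 at -2.37 ± 0.32. The rule that picked this group requires every BDC array to lie below every polyclonal one of its strain. Bst1 (CD157), a surface enzyme, read 7.06 and 7.28 (B6g7) and 7.58 and 7.79 (NOD) in BDC DN2-3, 8.92 and 8.83 (B6g7) and 10.05 and 9.98 (NOD) in non-Tg DN4 and 11.25 and 11.35 (B6g7) and 11.74 and 11.73 (NOD) in non-Tg DN2-3. For Bst1 the 3 sorts lay at 3 separate levels. The surface antigen Ly6d (-2.10 ± 0.16) and the plexin-domain gene Plxdc1 (-2.19 ± 0.07) were lower than in DN4 too. Of the 10 tested genes of recombination and the pre-TCR, 6 fell and none rose, with a median of -0.39 against 0.013 over all genes. The 6 are 60% of the list, beside 38.0% called of all genes. They include the terminal transferase gene Dntt (-0.43 ± 0.07), Ptcra (-0.74 ± 0.07) and the end-joining factor Xrcc4 (-0.63 ± 0.10). Against non-Tg DN2-3, where 38.2% of all genes were called, the list had 6 lower and 1 higher.

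Promoters are shown for Cish, an inhibitor of cytokine receptor signalling, for the repressor gene Bcl6 and for Ptcra, because the cytokine-activated factor STAT5 is known to act on Cish and Bcl6, and E proteins on Ptcra. Relative to DN4 the difference was 1.24 ± 0.09 for Cish, -1.20 ± 0.08 for Bcl6 and -0.74 ± 0.07 for Ptcra. The sequences are RefSeq windows (GRCm38.p6) from 250 bases before to 50 after the gene start, read on the gene's strand, with the matched letters in capitals. The letters searched were TTCNNNGAA, the STAT recognition element, and CAGCTG, an E-box bound by E proteins. Both read the same on both strands, and a match is a description of the letters only. The Cish window at chr9:107296409-107296708 (plus strand) holds 2 TTCNNNGAA matches, starting 0 and 11 bases from the gene start. The Bcl6 window at chr16:23981234-23981533 (minus strand) holds 3, starting at -168, -122 and -88, while a second window given for Bcl6 holds 1. Of these 2 Bcl6 windows the first is printed because it holds more matches. Its count therefore cannot be set against the shares of all windows below as if picked beforehand. The Ptcra window at chr17:46763663-46763962 (minus strand) holds 3 CAGCTG matches, starting at -60, -49 and 21. Of 32851 such windows, 8.3% hold TTCNNNGAA at least once, 0.457% hold it 2 or more times and 0.033% 3 or more times. CAGCTG occurs in 16.3% of the windows, and 0.207% hold it 3 or more times.
Cish: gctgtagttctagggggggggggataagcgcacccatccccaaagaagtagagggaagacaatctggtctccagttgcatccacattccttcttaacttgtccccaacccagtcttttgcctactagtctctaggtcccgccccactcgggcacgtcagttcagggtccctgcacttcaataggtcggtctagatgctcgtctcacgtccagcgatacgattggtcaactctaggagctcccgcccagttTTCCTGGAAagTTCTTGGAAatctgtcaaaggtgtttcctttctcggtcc
Bcl6: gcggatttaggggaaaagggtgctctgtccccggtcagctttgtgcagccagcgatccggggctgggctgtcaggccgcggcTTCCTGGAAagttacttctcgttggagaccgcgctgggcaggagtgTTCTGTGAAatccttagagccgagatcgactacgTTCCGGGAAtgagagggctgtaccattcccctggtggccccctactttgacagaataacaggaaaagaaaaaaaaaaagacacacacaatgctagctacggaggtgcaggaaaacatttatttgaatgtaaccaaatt
Ptcra: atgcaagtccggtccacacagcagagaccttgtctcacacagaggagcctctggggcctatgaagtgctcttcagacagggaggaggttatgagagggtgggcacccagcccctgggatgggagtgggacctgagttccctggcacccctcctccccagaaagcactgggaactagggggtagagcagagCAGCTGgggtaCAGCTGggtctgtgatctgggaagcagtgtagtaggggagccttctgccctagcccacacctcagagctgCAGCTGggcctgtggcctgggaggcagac

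In other genes the CD25-positive sorts shared a high level and DN4 lay apart. Socs2, a target of STAT5, read 10.26 and 10.31 (B6g7) and 9.54 and 9.79 (NOD) in BDC DN2-3 and 8.72 and 8.93 (B6g7) and 9.51 and 9.60 (NOD) in non-Tg DN2-3, and lay at background on all 4 non-Tg DN4 arrays. By its brightest probe set it was higher in BDC DN2-3 than in DN4 by at least 3.99 (adjusted p = 1.19e-07). Another tested probe set of Socs2 rose by less, 1.71 (adjusted p = 5.42e-06). Cpa3, a carboxypeptidase of mast cells and early progenitors, read 12.16 and 11.79 (B6g7) and 11.17 and 11.25 (NOD) in BDC DN2-3, against 7.88 and 7.40 (B6g7) and 6.93 and 6.72 (NOD) in non-Tg DN4 and 11.64 and 11.61 (B6g7) and 11.67 and 11.01 (NOD) in non-Tg DN2-3 (4.36 ± 0.12 against DN4, adjusted p = 7.44e-09). The granule protein gene Nkg7 read 11.66 and 11.38 (B6g7) and 10.36 and 10.67 (NOD) in BDC DN2-3, against 8.13 and 8.28 (B6g7) and 7.33 and 7.36 (NOD) in non-Tg DN4 and 11.16 and 11.38 (B6g7) and 10.93 and 10.90 (NOD) in non-Tg DN2-3. For Cpa3 and Nkg7 the difference between BDC and non-Tg DN2-3 was not called (0.11 ± 0.16 and -0.07 ± 0.15). Bcl2, which protects from apoptosis, read 11.80 and 11.74 (B6g7) and 11.55 and 11.61 (NOD) in BDC DN2-3, against 9.52 and 9.64 (B6g7) and 9.50 and 9.48 (NOD) in non-Tg DN4 (2.14 ± 0.07, adjusted p = 1.5e-08). Bcl2 and the genes that follow are given by their difference from DN4 only, without a level in non-Tg DN2-3. Other genes among the 15 largest rises were the surface proteins Cd93 (2.94 ± 0.09), Cd53 (2.46 ± 0.07), Plaur (2.57 ± 0.17), Adgrg3 (2.53 ± 0.08) and Lilr4b (at least 2.48). The phospholipid flippase gene Atp8b4 (2.82 ± 0.08), the RNA-binding Rbpms (2.43 ± 0.08) and the actin-severing Scin (at least 2.29) completed them.

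In another group DN4 lay above both CD25-positive sorts. The coreceptor gene Cd8b1 read 8.11 and 7.69 (B6g7) and 7.97 and 8.08 (NOD) in BDC DN2-3, against 11.09 and 11.07 (B6g7) and 9.36 and 9.52 (NOD) in non-Tg DN4 and 6.83 and 7.08 (B6g7) and 7.21 and 6.29 (NOD) in non-Tg DN2-3 (-2.30 ± 0.29, adjusted p = 0.000265). Cd8a read 7.13 and 6.68 (B6g7) and 7.05 and 7.32 (NOD) in BDC DN2-3, against 9.57 and 9.39 (B6g7) and 8.85 and 8.97 (NOD) in non-Tg DN4 (-2.15 ± 0.17), and Cd4 read 6.49 and 6.46 (B6g7) and 6.96 and 6.87 (NOD) in BDC DN2-3, against 7.30 and 7.46 (B6g7) and 8.05 and 8.42 (NOD) in non-Tg DN4 (-1.11 ± 0.11). Ikzf3, the lymphocyte factor Aiolos, read 7.88 and 7.33 (B6g7) and 8.04 and 7.68 (NOD) in BDC DN2-3, against 10.54 and 10.43 (B6g7) and 10.74 and 10.84 (NOD) in non-Tg DN4 and 7.85 and 7.67 (B6g7) and 7.10 and 7.70 (NOD) in non-Tg DN2-3 (-2.90 ± 0.12, adjusted p = 7.87e-08). Cd4 and the genes that follow in this paragraph are given by their difference from DN4 only, without a level in non-Tg DN2-3. Of 20 tested genes that mark the step towards CD4 and CD8 double-positive cells, 14 fell and 3 rose, with a median of -0.666. That is 85% called, beside 38.0% of all genes. Bcl6, a transcriptional repressor, read 6.42 and 6.40 (B6g7) and 6.74 and 6.66 (NOD) in BDC DN2-3, against 7.55 and 7.43 (B6g7) and 7.96 and 8.07 (NOD) in non-Tg DN4. Lef1 (-0.70 ± 0.09), Ets2 (-0.81 ± 0.12) and the costimulatory receptor Cd28 (-0.58 ± 0.07) also fell. The 3 that rose were Cd27 (0.65 ± 0.08), Tox (0.41 ± 0.07) and Slamf1 (0.54 ± 0.10). Tox, Slamf1 and the other genes outside the fixed rule in the next paragraphs were named after their values were seen, because they complete a small count. Of 8 sort and stage markers 3 rose (Il2ra, Kit and Cd44) and 4 fell (Cd8b1, Cd8a, Cd4 and Thy1, at -0.35 ± 0.09), which is 87.5% called. The remaining genes among the 15 largest falls were Glcci1 (-2.51 ± 0.22), Dgkeos (-1.81 ± 0.19), Stxbp4 (-1.48 ± 0.19), Mr1 (-1.47 ± 0.08), which presents vitamin metabolites to T cells, Tdrkh (-1.42 ± 0.11), Tdrd5 and Scd1. With BDC arrays at background, Tdrd5 fell by 1.25 or more, and the fatty acid desaturase gene Scd1 fell by 1.65 or more.

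In the remaining group BDC DN2-3 and DN4 lay close together and non-Tg DN2-3 lay apart. The adhesion receptor Cd2 read 9.06 and 9.08 (B6g7) and 9.63 and 9.46 (NOD) in BDC DN2-3, 9.12 and 9.07 (B6g7) and 9.51 and 9.43 (NOD) in non-Tg DN4 and 6.37 and 6.52 (B6g7) and 7.06 and 7.05 (NOD) in non-Tg DN2-3. Its difference from DN4 was 0.03 ± 0.07 (adjusted p = 0.804) and from non-Tg DN2-3 2.55 ± 0.08. The calcium-dependent kinase gene Camk4 (-0.17 ± 0.09 against DN4, 1.71 ± 0.11 against non-Tg DN2-3) and the tetraspanin gene Cd81 (0.04 ± 0.14 and 1.57 ± 0.17) had the same order. The repressor Zeb2 and the complement regulator Cd59a had the opposite one. Zeb2 read 7.35 and 7.17 (B6g7) and 6.71 and 6.73 (NOD) in BDC DN2-3, 6.83 and 6.94 (B6g7) and 6.95 and 6.77 (NOD) in non-Tg DN4 and 9.24 and 9.22 (B6g7) and 9.20 and 8.98 (NOD) in non-Tg DN2-3. Cd59a differed by -0.09 ± 0.12 from DN4 and -2.63 ± 0.11 from non-Tg DN2-3. Pld4 read 8.17 and 8.03 (B6g7) and 9.15 and 9.33 (NOD) in BDC DN2-3, 7.40 and 7.49 (B6g7) and 8.43 and 8.65 (NOD) in non-Tg DN4 and 11.34 and 11.29 (B6g7) and 11.15 and 11.88 (NOD) in non-Tg DN2-3, and its difference from DN4 was 0.68 ± 0.08 (adjusted p = 0.000241).

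Cell division genes were higher in BDC DN2-3 than in non-Tg DN2-3, and the mitosis genes were lower than in DN4. Against non-Tg DN2-3, 34 of 37 DNA replication genes rose in BDC DN2-3 and none fell (median 0.58), in a comparison with 4083 of 10689 genes called, 2455 higher and 1628 lower (2844 and 1187 after centring on array medians). For non-Tg DN4 against non-Tg DN2-3, 27 of 37 rose and none fell (median 0.559), with 3249 genes called overall (30.4%), or 5107 without NOD non-Tg DN2-3 replicate 1. These comparisons share arrays with the main one. Over all genes BDC DN2-3 against non-Tg DN2-3 gave 1555 calls without the male arrays and 2263 with sex as a term. Its list counts were not taken again in those settings. Between BDC DN2-3 and non-Tg DN4 themselves, 5 replication genes rose and 12 fell (45.9% called, beside 38.0% of all genes), with a median of -0.112, or 1 and 8 without the male arrays. Those that fell include the G1-to-S cyclins Ccne1 (-0.58 ± 0.10) and Ccne2 (-0.86 ± 0.11), the factor E2f2 (-0.75 ± 0.09) and the clamp-loader subunit Rfc4 (-0.59 ± 0.08). The 5 that rose were the helicase subunits Mcm2 (0.45 ± 0.13), Mcm5 (0.38 ± 0.12) and Mcm7 (0.36 ± 0.11), the polymerase gene Pold1 (0.55 ± 0.14) and E2f1 (0.44 ± 0.15). Of 35 mitosis and spindle genes, 21 fell and none rose against DN4 (median -0.271), where 16.7% of all genes fell. The count was 13 lower without the male arrays, 14 after centring on array medians and 10 in NOD alone, while in B6g7 alone 13 fell and 5 rose. Examples are Kif4 (-0.55 ± 0.08), Bub1 (-0.54 ± 0.08), Cenpe (-0.54 ± 0.08) and Nusap1 (-0.45 ± 0.10). Against non-Tg DN2-3, 32 of these 35 were higher in BDC DN2-3 (median 0.614), and 33 were higher in non-Tg DN4 (median 0.808). In B6g7 alone the replication median against DN4 was 0.05, and in NOD it was -0.23.

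**Figure D3:**
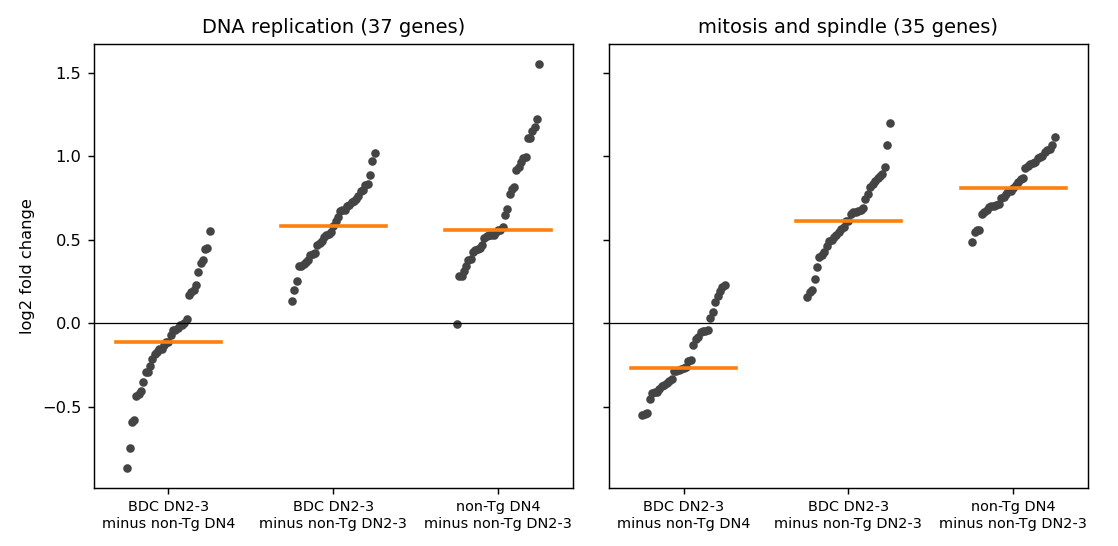
Log2 fold change (y axis) of each tested DNA replication and mitosis gene (dots, sorted) in the 3 comparisons between sorts (x axis), with the list median as a line. Medians are 0.58 and 0.559 for replication and 0.614 and 0.808 for mitosis over non-Tg DN2-3, against -0.112 and -0.271 for BDC DN2-3 minus non-Tg DN4.

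The G1 genes moved both ways, with 4 of 16 higher and 6 lower (62.5% called, beside 38.0% of all genes), or 2 and 5 without the male arrays. Cyclins Ccnd2 (0.83 ± 0.09) and Ccnd3 (0.81 ± 0.21) and the kinases Cdk4 (0.30 ± 0.08) and Cdk6 (0.69 ± 0.10) rose, while the antiproliferative gene Btg2 (-0.83 ± 0.10) and the kinase inhibitor Cdkn2c (-0.71 ± 0.22) were among those that fell. Of 31 Myc and ribosome biogenesis genes 6 rose and none fell (median 0.095), or 2 and none without the male arrays. The 6 are 19.4% of the list, below the 38.0% called of all genes. Myc itself differed by -0.10 ± 0.15 (adjusted p = 0.618). Cad (0.73 ± 0.13), which starts pyrimidine synthesis, rose most among them, with Gar1 (0.53 ± 0.14), Nop2 (0.51 ± 0.13) and Rrp9 (0.45 ± 0.09). Of 20 nutrient uptake and glycolysis genes 12 rose and 1, the lactate dehydrogenase gene Ldhb (-0.97 ± 0.11), fell (65% called, median 0.36), or 7 and 1 without the male arrays. Against non-Tg DN2-3, where 38.2% of all genes were called, 24 of the Myc and ribosome genes rose and 1 fell, and 14 of the nutrient genes rose and 1 fell. The glucose transporters Slc2a1 (0.79 ± 0.13) and Slc2a3 (1.21 ± 0.15) rose, and the transferrin receptor Tfrc was 0.25 ± 0.10 (adjusted p = 0.068). Among 13 survival genes 3 rose and 3 fell (46.2% called, beside 38.0% of all genes), or 3 and 1 without the male arrays. The calls of Ccnd3, Cdkn2c, Gar1, Nop2 and Mcl1 were lost with sex as a term. Besides Bcl2, Casp8 (0.58 ± 0.11) and Mcl1 (0.30 ± 0.08) rose, and Bid (-0.70 ± 0.08), Bmf (-0.30 ± 0.09) and Trp53inp1 (-0.23 ± 0.08) fell.

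Among genes of receptor signalling more rose than fell in BDC DN2-3 relative to DN4, while relative to non-Tg DN2-3 more of the proximal genes fell than rose. Of 30 tested genes of the receptor complex and its proximal signalling 16 rose and 1, Themis (-0.66 ± 0.09), fell (56.7% called, median 0.288), or 10 and 1 without the male arrays (median 0.249). Against non-Tg DN2-3, where 38.2% of all genes were called, 6 of the 30 were higher in BDC DN2-3 and 11 lower (median -0.233). For non-Tg DN4 against non-Tg DN2-3, where 30.4% of all genes were called, 2 were higher and 14 lower (median -0.362). The CD3 chain gene Cd3e (-0.04 ± 0.08, adjusted p = 0.714) and Cd247 (0.09 ± 0.08, adjusted p = 0.438) did not pass the test. The kinase genes Fyn (0.85 ± 0.16) and Zap70 (0.40 ± 0.10), the inhibitory kinase gene Csk (0.79 ± 0.12) and the diacylglycerol kinase gene Dgka (0.91 ± 0.09) rose. Of 30 genes induced by receptor signals 13 rose and 1, Cd28, fell (median 0.283), which is 46.7% called beside 38.0% of all genes. Against non-Tg DN2-3, 11 were higher in BDC DN2-3 and 5 lower (median 0.189). The inhibitory receptor gene Pdcd1 read 11.05 and 11.07 (B6g7) and 10.50 and 10.39 (NOD) in BDC DN2-3, against 8.54 and 8.63 (B6g7) and 8.57 and 8.70 (NOD) in non-Tg DN4 and 9.08 and 9.34 (B6g7) and 8.64 and 8.83 (NOD) in non-Tg DN2-3 (2.14 ± 0.13, adjusted p = 1.4e-06). Nr4a1, an immediate-early nuclear receptor, read 12.60 and 12.60 (B6g7) and 12.46 and 12.24 (NOD) in BDC DN2-3, against 11.10 and 11.19 (B6g7) and 11.69 and 12.18 (NOD) in non-Tg DN4 (0.94 ± 0.19). The phosphatase genes Dusp5 (1.23 ± 0.16) and Dusp6 (1.18 ± 0.09), which restrain MAP kinases, Irf4 (1.12 ± 0.12) and Cd5 (0.51 ± 0.10) rose. The call of Zap70 was lost with sex as a term. Cd69 read 9.02 and 8.59 (B6g7) and 8.92 and 9.53 (NOD) in BDC DN2-3, 9.05 and 8.71 (B6g7) and 9.41 and 9.25 (NOD) in non-Tg DN4 and 10.52 and 10.60 (B6g7) and 10.54 and 10.57 (NOD) in non-Tg DN2-3, and it differed from DN4 by -0.09 ± 0.14 (adjusted p = 0.651). Egr1 (0.37 ± 0.15, adjusted p = 0.0694), Egr2 (-0.12 ± 0.11, adjusted p = 0.382) and Id3 (0.25 ± 0.20, adjusted p = 0.353) did not pass.

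Among Notch and progenitor genes more rose than fell in BDC DN2-3 relative to DN4. Of 20 Notch pathway genes 10 rose and 1, Adam10 (-0.22 ± 0.07), fell (median 0.288), which is 55% called beside 38.0% of all genes. Without the male arrays 6 rose and none fell, after quantile normalization again 7 and 1, and in NOD alone 5 and 1. Against non-Tg DN2-3, where 38.2% of all genes were called, 1 of the 20 was higher in BDC DN2-3 and 4 lower. For non-Tg DN4 against non-Tg DN2-3, where 30.4% of all genes were called, none rose and 8 fell. The Notch target Hes1 read 10.64 and 10.67 (B6g7) and 10.78 and 10.64 (NOD) in BDC DN2-3, 9.56 and 9.49 (B6g7) and 9.57 and 9.59 (NOD) in non-Tg DN4 and 11.16 and 11.13 (B6g7) and 11.23 and 11.27 (NOD) in non-Tg DN2-3, with BDC DN2-3 between the polyclonal sorts. Dtx1 (1.15 ± 0.19), Hey1 (0.81 ± 0.15) and the Notch-modifying enzyme Lfng (0.88 ± 0.08) rose, and the receptors Notch1 (0.30 ± 0.11) and Notch3 (0.26 ± 0.08) by less, and both lost their calls after quantile normalization again. Notch3 read 8.33 and 8.47 (B6g7) and 8.72 and 8.91 (NOD) in BDC DN2-3, 8.14 and 8.22 (B6g7) and 8.42 and 8.62 (NOD) in non-Tg DN4 and 10.55 and 10.39 (B6g7) and 9.28 and 10.18 (NOD) in non-Tg DN2-3. Of 13 tested early progenitor genes, of 19 listed, 10 rose and 1, Gfi1b (-0.48 ± 0.08), fell (84.6% called, median 0.725). Against non-Tg DN2-3 none was higher and 3 were lower, beside 38.2% called of all genes. The stem cell factor receptor Kit read 10.26 and 10.16 (B6g7) and 9.87 and 9.87 (NOD) in BDC DN2-3, 8.16 and 8.48 (B6g7) and 8.56 and 8.50 (NOD) in non-Tg DN4 and 10.29 and 10.23 (B6g7) and 9.63 and 10.01 (NOD) in non-Tg DN2-3. Erg (1.59 ± 0.14) and Spi1 (at least 1.22), transcription factors of early progenitors, were higher than in DN4, and Erg was lower than in non-Tg DN2-3 (-0.94 ± 0.17). Of 21 T lineage factors 10 rose and 6 fell (76.2% called, median 0.227), or 5 and 5 without the male arrays. Runx3 (1.70 ± 0.11), Gata3 (0.76 ± 0.08) and Bcl11b (0.41 ± 0.08) rose, and Id2 differed by 0.17 ± 0.10 (adjusted p = 0.198).

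**Figure D4:**
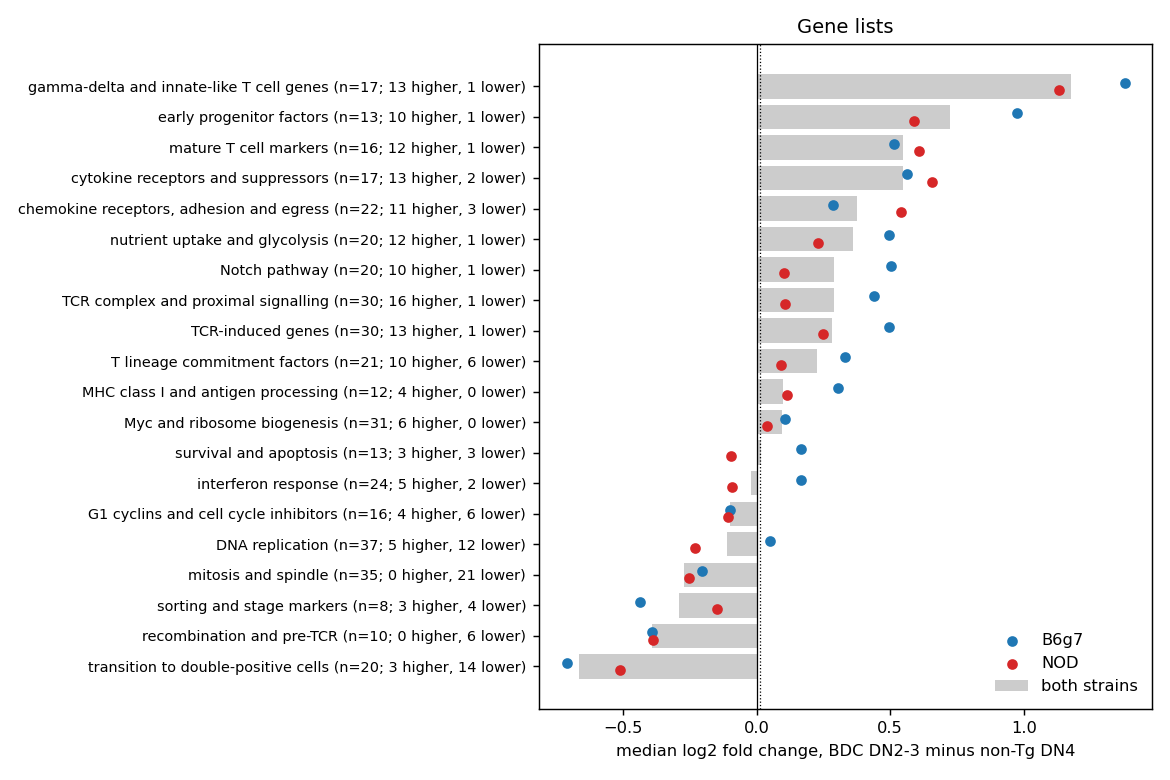
Median log2 fold change of each gene list, BDC DN2-3 minus non-Tg DN4 (x axis; bars, both strains together; dots, B6g7 and NOD), with the tested genes and the numbers called higher and lower beside each name and the median of all genes as a dotted line. Lists run from gamma-delta and innate-like genes at 1.178 to the double-positive transition list at -0.666.

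Among cytokine receptors, egress receptors and markers of mature T cells more rose than fell relative to DN4. Against non-Tg DN2-3, the counts higher and lower in BDC DN2-3 were 6 and 2 for the cytokine list and 7 and 5 for the egress list. They were 12 and 1 for the mature T cell markers, in a comparison with 38.2% of all genes called. Of 17 cytokine receptor and suppressor genes 13 rose and 2, Il6st (-0.36 ± 0.08) and Tgfbr1 (-0.34 ± 0.07), fell (88.2% called, median 0.546). Cish, an inhibitor induced by STAT5, read 8.40 and 8.38 (B6g7) and 7.40 and 7.42 (NOD) in BDC DN2-3, against 6.92 and 6.96 (B6g7) and 6.34 and 6.40 (NOD) in non-Tg DN4 (adjusted p = 6.61e-06). Il4ra (1.43 ± 0.16), Il2rb (1.16 ± 0.15) and Il7r (0.52 ± 0.14) rose, and Il7r was lower than in non-Tg DN2-3 (-0.86 ± 0.10) and lost its call against DN4 with sex as a term. Of 22 chemokine receptor, adhesion and egress genes 11 rose and 3, Nrp1 (-1.10 ± 0.14), Ccr9 (-0.68 ± 0.19) and Itga6 (-0.54 ± 0.14), fell (63.6% called, median 0.377). Of 16 mature T cell markers 12 rose and 1, Cd28, fell (81.2% called, median 0.549, or 0.518 with signals raised to background). S1pr1, the receptor that guides exit from the thymus, read 8.97 and 8.88 (B6g7) and 8.93 and 9.01 (NOD) in BDC DN2-3, 6.91 and 7.06 (B6g7) and 6.90 and 7.07 (NOD) in non-Tg DN4 and 6.82 and 7.12 (B6g7) and 7.75 and 7.92 (NOD) in non-Tg DN2-3. Gimap4 (1.85 ± 0.13), Ccr7 (0.94 ± 0.10) and Itgb7 (1.11 ± 0.23) rose too. The summed intensity of this list was 7982 to 9183 in BDC DN2-3, against 6308 to 7385 in non-Tg DN4, and the part of mature T cells in these values was not tested. Of 12 MHC class I and antigen processing genes 4 rose, Tapbp (0.73 ± 0.10), Calr (0.50 ± 0.09), Tap2 (0.35 ± 0.08) and Psmb9 (0.33 ± 0.10), and none fell (33.3% called), with the call of Psmb9 lost with sex as a term. Of 24 interferon response genes 5 rose and 2 fell (29.2% called), so the MHC and interferon lists had shares below the 38.0% of all genes. The interferon median was -0.021, and 0.002 after centring on array medians. Against non-Tg DN2-3, 1 of the 24 was higher in BDC DN2-3 and 13 lower (median -0.489), and for non-Tg DN4 against non-Tg DN2-3, 1 was higher and 14 lower (median -0.502). The genes include Samhd1 (at least 0.65), Ifi35 (0.68 ± 0.10) and Irf7 (0.53 ± 0.11) among those that rose, with Oasl2 (0.47 ± 0.10) and Ddx58 (0.32 ± 0.07) as the others, and Ifit2 (-0.76 ± 0.10) and Rsad2 (-0.40 ± 0.11) fell.

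The list of gamma-delta and innate-like T cell genes had the highest median of the lists against DN4, and a smaller one against non-Tg DN2-3. Of 17 tested genes, of 26 listed, 13 rose and 1, Tbx21 (-0.92 ± 0.12), fell (82.4% called, beside 38.0% of all genes, median 1.178). Against non-Tg DN2-3, where 38.2% of all genes were called, 8 were higher in BDC DN2-3 and 1 lower (median 0.475). For non-Tg DN4 against non-Tg DN2-3, 3 were higher and 9 lower (median -0.58), so the polyclonal CD25-positive sort also read above DN4 for members of this list. Sox13, a factor of gamma-delta cells, read 9.73 and 9.58 (B6g7) and 8.63 and 8.72 (NOD) in BDC DN2-3, against 8.49 and 8.54 (B6g7) and 7.93 and 7.90 (NOD) in non-Tg DN4 (0.95 ± 0.09), and Gzma, a granzyme gene, rose by 1.08 ± 0.11. Zbtb16, which encodes PLZF, read 6.97 and 7.32 (B6g7) and 8.12 and 8.35 (NOD) in BDC DN2-3 and 7.53 and 7.47 (B6g7) and 7.33 and 7.64 (NOD) in non-Tg DN4 (0.20 ± 0.20, adjusted p = 0.46). Markers of other cells were read beside these genes. Of 11 NK cell markers 4 were tested and 3 rose, Nkg7, Il2rb (1.16 ± 0.15) and Gzma. The summed intensity was 4463 to 6668 in BDC DN2-3, against 1571 to 2317 in non-Tg DN4 and 2861 to 3758 in non-Tg DN2-3. Against non-Tg DN2-3, 2 of the 4 were higher in BDC DN2-3 and none lower. What part NK cells have in these values was not tested. The defining NK markers Ncr1, Klrb1c, Klrk1, Klrd1, Klre1, Eomes and Klra8 lay at background in BDC DN2-3 and in non-Tg DN4. Of 10 thymic stroma markers 5 were tested and 3 rose, Pdgfrb (1.36 ± 0.32), Pecam1 (0.65 ± 0.09) and Epcam (0.50 ± 0.18), and Krt5 lay at background. The summed intensity was 1813 to 3054 in BDC DN2-3, against 1566 to 1786 in non-Tg DN4 and 1924 to 3081 in non-Tg DN2-3. Against non-Tg DN2-3, none of the 5 was higher in BDC DN2-3 and 1 was lower. The call of Epcam was lost after quantile normalization again. B cell markers summed to 1042 to 1117 in BDC DN2-3, against 1080 to 1114 in non-Tg DN4, none of 2 tested was called, and Cd79a, Ms4a1 and Ebf1 lay at background. Myeloid markers summed to 975.6 to 1099 in BDC DN2-3, against 991.3 to 1138 in non-Tg DN4, with Mpo (0.81 ± 0.14) higher and Cd74 (-0.69 ± 0.10) lower of 3 tested, and Itgam, Csf1r and Cd14 at background. Erythroid markers summed to 453.8 to 519.4 in BDC DN2-3, against 490.5 to 596.7 in non-Tg DN4.

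More genes were called in B6g7 than in NOD. Within B6g7 5175 genes were called (48.4%), 3383 higher and 1792 lower (2542 and 2574 after quantile normalization again, 4095 and 1135 after centring on array medians), and within NOD 2349 (22.0%), 960 higher and 1389 lower (1073 and 1055 after quantile normalization again, 784 and 1644 after centring). The fold changes of the 2 strains share no arrays, and they correlated at 0.748 (Pearson) across 10689 genes, which are not independent replicates. The calls of both strains come from 1 fit of the 8 arrays with a shared estimate of the spread, so they are not independent. Of the 1706 genes called in both strains (33% of the B6g7 calls and 72.6% of the NOD calls), 850 rose in both, 820 fell in both and 36 went opposite ways. The difference between strains, NOD minus B6g7, was itself called for 1007 genes (9.42%), 177 with the NOD value higher and 830 with the NOD value lower. Leaving out 1 array at a time gave 838 to 2723 calls in NOD, the highest when a B6g7 DN4 array was left out. The count there was 838 when NOD DN4 replicate 1 was left out, and when the male or the female BDC array of NOD was left out it was 859 or 998. For the strain difference the count was 185 when the female BDC array of NOD was left out, and also 185 for NOD DN4 replicate 2. It was 333 for the male BDC array of NOD, 282 and 547 for the male and the female BDC array of B6g7, and 569 and 1543 for replicates 1 and 2 of B6g7 DN4. The strain count was 437 after quantile normalization was applied again (132 higher, 305 lower) and 2658 after centring on array medians (127 higher, 2531 lower). The median strain difference of all genes was -0.147, or -0.008 and -0.268 in those settings, and single strain differences are to be read relative to it. St6galnac2, a sialyltransferase gene, read 6.95 and 7.07 (B6g7) and 8.89 and 9.23 (NOD) in BDC DN2-3, against 7.32 and 7.14 (B6g7) and 7.39 and 7.13 (NOD) in non-Tg DN4, a difference of -0.22 in B6g7 and 1.80 in NOD. Pdgfrb, a growth factor receptor gene, read 10.17 and 10.14 (B6g7) and 7.27 and 7.19 (NOD) in BDC DN2-3, against 7.81 and 7.71 (B6g7) and 6.86 and 6.95 (NOD) in non-Tg DN4, a difference of 2.39 in B6g7 and 0.33 in NOD. Icos, a costimulatory receptor gene, read 7.002 and 6.93 (B6g7) and 7.40 and 7.87 (NOD) in BDC DN2-3, against 7.59 and 7.54 (B6g7) and 6.73 and 6.67 (NOD) in non-Tg DN4, a difference of -0.60 in B6g7 and 0.94 in NOD.

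**Figure D5:**
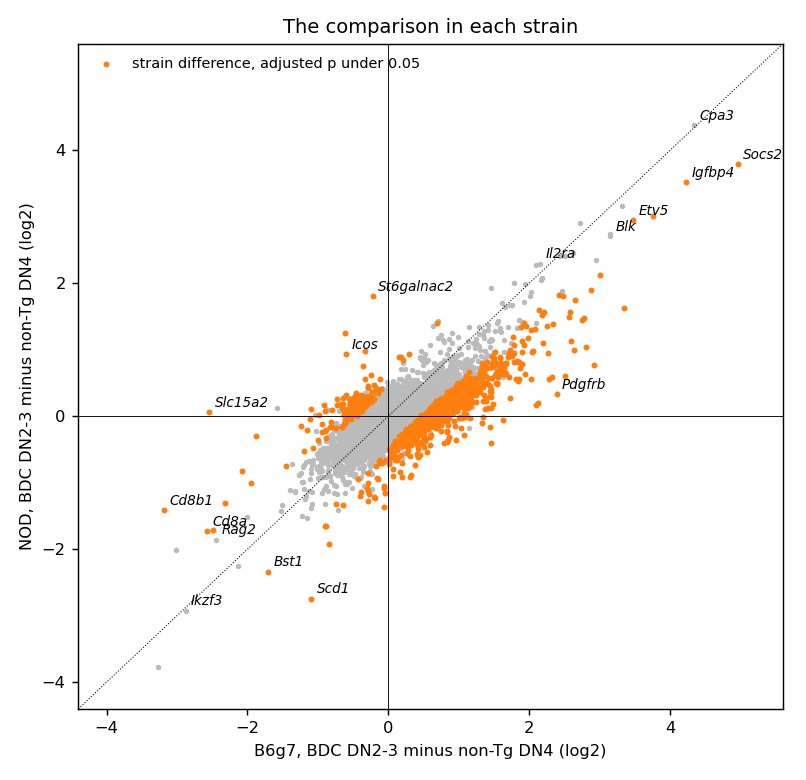
Log2 fold change of BDC DN2-3 minus non-Tg DN4 for each tested gene in B6g7 (x axis) and NOD (y axis), with the dotted line of equal values; genes in orange are called for the strain difference and some genes are labelled by name. Cpa3, Socs2 and Igfbp4 lie highest in both strains and Ikzf3 and Cd8b1 are lower in both, while St6galnac2 and Icos lie above the line and Pdgfrb below it.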

How the data were processed

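The 16 arrays hold 25108 probe sets. Per the submitters' processing notes, the intensity values were deposited after RMA in Affymetrix Power Tools (versions, genome build and annotation not given in the sources used here), a method that includes background correction and quantile normalization. The deposited values are intensities on a linear scale. Here log2 was taken, probe sets with 1 gene symbol were kept (21157; 1341 had several and 2610 none), and the brightest represented each gene. limma 3.58.1 in R 4.3.3 (lmFit, eBayes, two-sided, Benjamini-Hochberg) was run on 8 arrays with strain as a block (5 residual degrees of freedom), and on 4 group means for the strains. The small number of arrays limits the precision. In a test on simulated data for the main comparison, 82.1% of 1.5-fold changes and 100% of 2-fold and 4-fold changes were recovered, with 12 false calls. The simulated noise was independent between genes and had only the spread between replicates, and each change was equal in both strains. The test therefore does not cover genes whose difference depends on strain.

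The members and gene lists were chosen with earlier results of these data known. Genes named are the 15 largest called rises and falls whose arrays do not overlap within either strain, the 5 largest each way for the strain difference, those furthest outside the other sorts, up to 4 called members of each list, a set of key genes (Lck and Tcf7 were not matched to a probe set with 1 symbol) and called TCR segment genes. Predicted genes, TCR and immunoglobulin segment genes, small RNA genes and sex-linked genes (Xist and the Y chromosome) were left out of the first 3 kinds. Replicate numbers are shared between groups, but replicate 1 was male in the BDC groups and female in the others, so between BDC and non-Tg groups they do not mark the same animal. Alternatives were other filters, scalings, a sex term, array weights, raised background, all 16 arrays and left-out arrays.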

Additional observations from a re-analysis of the deposited data

Results flagged for a closer look

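For 48 named genes the difference between BDC DN2-3 and non-Tg DN4 was not the same in the 2 strains, by limma's test of the difference itself (NOD minus B6g7, log2, adjusted p-value under 0.05 over all genes, where 1007 of 10689 or 9.42% were called). Of the named genes, 10 were chosen as the largest strain differences. The median strain difference of all genes was -0.147, or -0.008 after quantile normalization again, where 37 of the 48 were called in the same direction, so values near this shift are small relative to it. Among genes that were higher in BDC DN2-3, the difference was smaller in NOD for Socs2 (-1.17), Igfbp4 (-0.70), Slc15a1 (-0.75), Etv5 (-0.53), Plaur (-0.88) and Scin (-1.73). Socs2, Slc15a1 and Scin have DN4 arrays at background, so their strain values rest in part on signals at background. Among the signalling and lineage genes it was smaller in NOD for Kit (-0.55), Fyn (-0.84), Csk (-0.54), Pdcd1 (-0.67), Nr4a1 (-1.04), Dtx1 (-1.13), Hey1 (-0.82), Erg (-0.80), Il4ra (-0.94), Il2rb (-0.87) and Gimap4 (-0.66). The same held for Ccnd3 (-1.16), Gar1 (-0.74), Nop2 (-0.67), Slc2a3 (-0.80) and Tapbp (-0.48).

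Some genes fell less in NOD: Cd8b1 (1.77), Cd8a (0.84), Ly6d (0.78), Dgkeos (1.02), Stxbp4 (0.95), Tdrd5 (1.25, background in BDC DN2-3), Trio (1.58) and Nrp1 (0.69). Others fell more in NOD, with Bst1 at -0.63, Scd1 at -1.65 and Cdkn2c at -1.30. Cd8b1 read 8.11 and 7.69 (B6g7) and 7.97 and 8.08 (NOD) on the BDC DN2-3 arrays, against 11.09 and 11.07 (B6g7) and 9.36 and 9.52 (NOD) on the non-Tg DN4 arrays, so the strains lay apart in DN4. Another probe set of Trio gave 0.205 in the main comparison, the other direction.

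Several differed in strain with the 2 strains on opposite sides or with a value near 0 in one. These were St6galnac2 (2.03), Icos (1.54), Zbtb16 (1.11), Il7r (0.74), Id3 (-1.20), Egr1 (-0.75), Cd59a (-0.54), Zeb2 (-0.51) and Epcam (-1.03). Pdgfrb (-2.06) and Fam20a (-1.93) rose in B6g7. Adgrd1 (-1.93) and Akr1c12 (-1.92) rose in B6g7 too, with the NOD arrays of both sorts at background. Slc15a2 (2.60) fell in B6g7 and lay at background in NOD, and its BDC DN2-3 arrays in B6g7 read 4.88 and 6.95. For Khdc1a (-1.87) all 8 arrays compared lay at background, so its strain value is not a measured difference.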

How the results depend on the processing

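Of 118 named genes called, 103 kept direction and call in the 11 alternatives run for single genes and with each of 8 arrays left out, and none of the 118 changed sign there. The replicate block and every probe set were not run gene by gene, and 17 of the 137 named genes had no value under the filter on the mean of the arrays compared. Of the genes not called, 9 changed sign in at least 1 alternative, none of them with a call. In the main comparison 4064 genes were called, against 2423 with sex as a term, 2201 without the male arrays and 6251 with array weights (2710 to 4463 leaving out 1 array). Within B6g7 the count was 3221 without the male arrays (3925 to 5057 leaving out 1 array). Within NOD it was 746 without the male arrays and 838 to 2723 leaving out 1 array. The strain difference gave 567 calls with no filter, 437 after quantile normalization again, 2658 after centring on array medians, 195 with all 16 arrays as group means and 185 to 1543 leaving out 1 array. BDC DN2-3 against non-Tg DN2-3 gave 2263 calls with sex as a term and 1555 without the male arrays (2784 to 5177 leaving out 1 array). Non-Tg DN4 against non-Tg DN2-3 gave 5137 with all 16 arrays and 2138 to 5107 leaving out 1 array, with no sex alternative run since all its arrays are female. Non-Tg DN4 lay outside the other sorts for 1710 to 2707 genes leaving out 1 array, BDC DN2-3 for 1758 to 2243 and non-Tg DN2-3 for 2459 to 3457. These last counts can only stay or rise when an array is left out, by the rule that makes them. The cause of the shifts in the numbers of calls was not tested.

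The deviations of same-numbered arrays correlated at 0.147 in B6g7 and -0.121 in NOD between BDC DN2-3 and non-Tg DN4, at 0.037 and -0.166 between BDC DN2-3 and non-Tg DN2-3, and at 0.101 and 0.585 between the non-Tg sorts. No label says that a number marks a shared animal, and with 2 pairs a strain the numbers were not taken to pair the arrays. With the replicate block the counts were 3084 in the main comparison, 5182 in B6g7, 2428 in NOD, 1249 for the strain difference, 3406 against non-Tg DN2-3 and 2748 between the non-Tg sorts. With the numbers crossed in NOD, chosen after seeing the data, they were 3273 in the main comparison and 2686 in NOD. The 15 genes that lost a call were Adgrd1, Akr1c12 (once signals were raised to background), Ccnd3, Cdkn2c, Epcam, Fam20a, Gar1, Il7r, Mcl1, Nop2, Notch1, Notch3, Psmb9, Trio and Zap70. Of 5 called named genes with another tested probe set, 4 had it called in the same direction. For Socs2 (1.71) and Stxbp4 (-0.408) that probe set gave a much smaller difference than the brightest one. Signals near background bound the differences of the dimmest genes, and 2 arrays a group limit the rest.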

Other observations

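Of the 36 genes called in opposite directions in the 2 strains, 5 with known roles in T cells are given, picked after their values were seen, and they do not stand for the others. The cytokine gene Il13 differed by -0.34 in B6g7 and 0.98 in NOD (BDC DN2-3 minus non-Tg DN4, log2). Icos, a costimulatory receptor gene, differed by -0.60 in B6g7 and 0.94 in NOD, and Zbtb16, which encodes the innate-like lineage factor PLZF, by -0.36 and 0.76. In the other direction, Cd274, which encodes the inhibitory ligand PD-L1, differed by 0.42 in B6g7 and -0.38 in NOD. Id3, an inhibitor of E proteins that receptor signals induce, differed by 0.85 in B6g7 and -0.35 in NOD.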
